A study of Bos taurus with 15 samples.

Results

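The genes that build cholesterol and fatty acids, together with the sterol sensors that control them, were followed in cultured bovine granulosa cells (GC), the steroid-producing cells of the ovarian follicle. The list holds 31 gene symbols, and a transcript cluster, which is the set of array probes for a locus, was taken as a member where the platform annotation gives it exactly one of these symbols. This rule found 28 clusters for 27 genes among 26773 clusters in all, since SCD has 2 clusters. HMGCS1, FDPS, STARD4 and ACAT2 are listed only in clusters that also carry another gene and therefore have no value here. All 28 members have a gene ID that stands under the same symbol in the bovine RefSeq annotation (ARS-UCD2.0).

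Sodium L-lactate at 30 mM had been added to 5 of the cultures, sodium chloride (NaCl) at the same concentration to 5 vehicle controls and nothing to 5 untreated ones, and each culture had a Bovine Gene 1.0 ST Array. All 15 cultures were started from frozen GC that had been aspirated from follicles below 6 mm of slaughtered cows. They were kept for 8 days on collagen in serum-free medium with FSH (20 ng/ml), R3 IGF-1 (50 ng/ml) and androstenedione (2 µM). The study's methods describe pools of cells from many ovaries without saying which arrays share a pool, so p-values measure the spread between these arrays only.

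Animal cells make cholesterol from acetyl-CoA, first along the mevalonate pathway to isoprenoids and squalene and then through a chain of sterol intermediates. The transcription factors SREBP2 and SREBP1, the products of SREBF2 and SREBF1, switch on the enzymes of sterol and of fatty acid synthesis. They lie in the membrane of the endoplasmic reticulum bound to the escort protein SCAP, and when sterols are plentiful, INSIG proteins hold SCAP back there. GC use cholesterol as the substrate of steroid hormones, and luteal cells need it in larger amounts for progesterone.

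In L-lactate treated cells, nearly the whole pathway was higher than in NaCl treated cells. Differences are given as log2 signal of the group named first minus the other, and a cluster is said to have risen or fallen where limma's adjusted p over all clusters was under 0.05. By this rule, 26 of the 28 member clusters (92.9%) rose and 1, SCAP, fell, while SREBF2 did not pass. Of all clusters, 10.7% rose and 11.5% fell in the same comparison. Every member has a mean signal at or above the median of all clusters, and of the 13387 clusters in that upper part 18.8% rose and 20.7% fell. The difference was above 0 for 27 of 28 members and for 46.2% of all clusters. The median difference of the members was 0.36, against -0.01 for all clusters. For 25 members each L-lactate array lay above each NaCl array and for 1, SCAP, each lay below, as was the case for 9.35% and 9.73% of all clusters.

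The increases were small. Member differences between L-lactate and NaCl lay between -0.25 for SCAP and 0.62 for TM7SF2. The study's threshold adds a fold change above 1.5, which is 0.585 on the log2 scale, and 4 members (TM7SF2, LSS, PMVK and INSIG1) passed it upwards, with 1.28% of all clusters doing so. No member passed it downwards (0 of 28, against 0.601% of all clusters), with SCAP the only member that fell at an adjusted p under 0.05. The 4 lay close to the threshold, with fold changes from 1.51 to 1.53, and FASN was just short of it at 1.47. Without L-lactate replicate 5 (log2 difference 0.57) or without NaCl replicate 4 (0.58), PMVK did not reach the fold threshold and 3 members passed.

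Averaged over the 28 clusters, the L-lactate arrays read 9.34, 9.33, 9.34, 9.35 and 9.34 on the log2 scale. The NaCl arrays read 9.02, 9.01, 8.98, 9.00 and 8.98, and the untreated arrays 8.97, 9.00, 8.95, 8.96 and 9.04. The L-lactate arrays thus stood apart from both other groups, which overlapped, and they differed least among each other (SD 0.0068, against 0.017 between NaCl and 0.035 between untreated arrays).

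**Figure D1:**
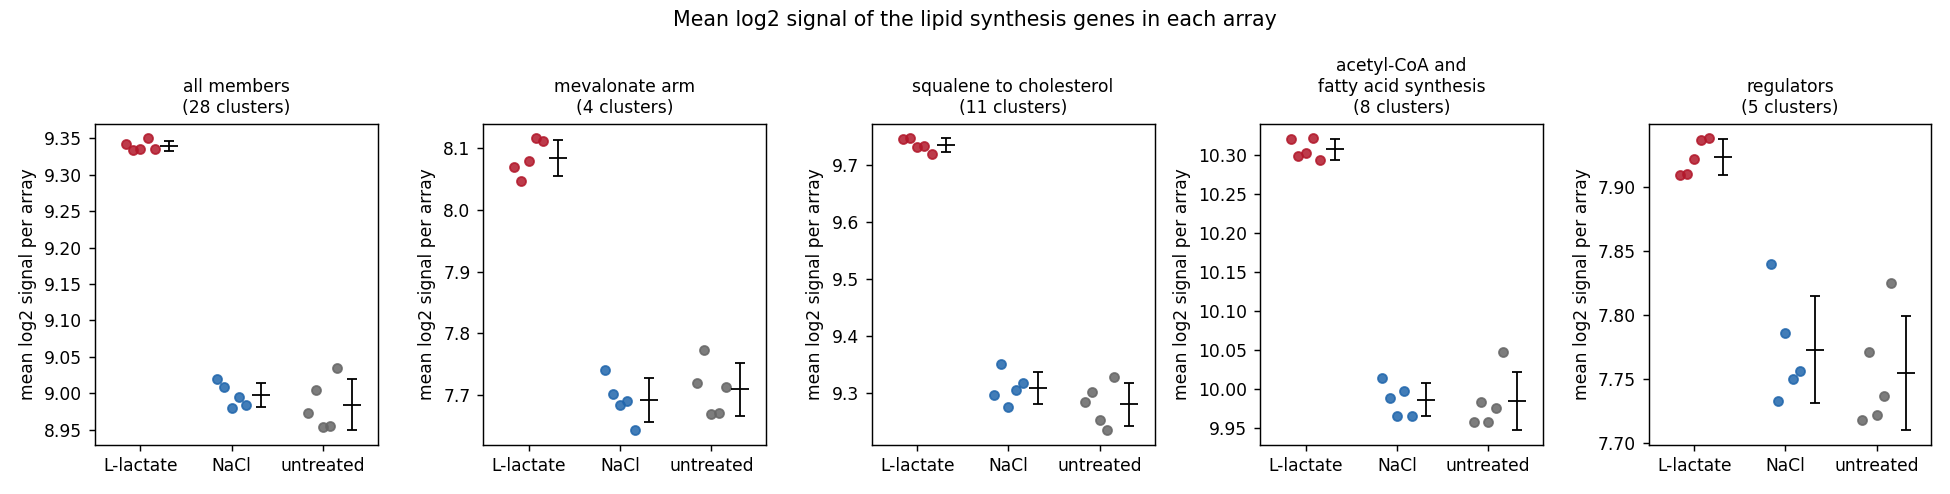
Mean log2 signal per array (vertical axes, which do not start at 0) over all 28 member clusters and over the 4 functional groups, for L-lactate, NaCl and untreated cultures. Points are arrays, bars the mean with its SD (n = 5). In every panel the 5 L-lactate arrays lie above the other 10.

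Against untreated cells, the picture was similar. With L-lactate, 24 members (85.7%) rose and 1, SCAP, fell, where 13.3% and 13.7% of all clusters did. Of the clusters in the upper part of the signal range 23.1% rose and 23.4% fell. The median was 0.29, against -0.02 for all clusters, and the difference was above 0 for 26 members and 45.8% of all clusters. PMVK, LSS, TM7SF2, INSIG1, ACLY and FASN passed the fold threshold, 6 members (21.4%), against 1.93% of all clusters, and none passed it downwards (1.33% of all clusters). HSD17B7, at 1.49-fold, also passed without untreated replicate 1, which made 7 members. For 23 members no L-lactate array came down to the highest untreated array (11.2% of all clusters), and for SCAP none reached the lowest one (11.2%). This comparison shares the L-lactate arrays with the one against NaCl.

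**Figure D2:**
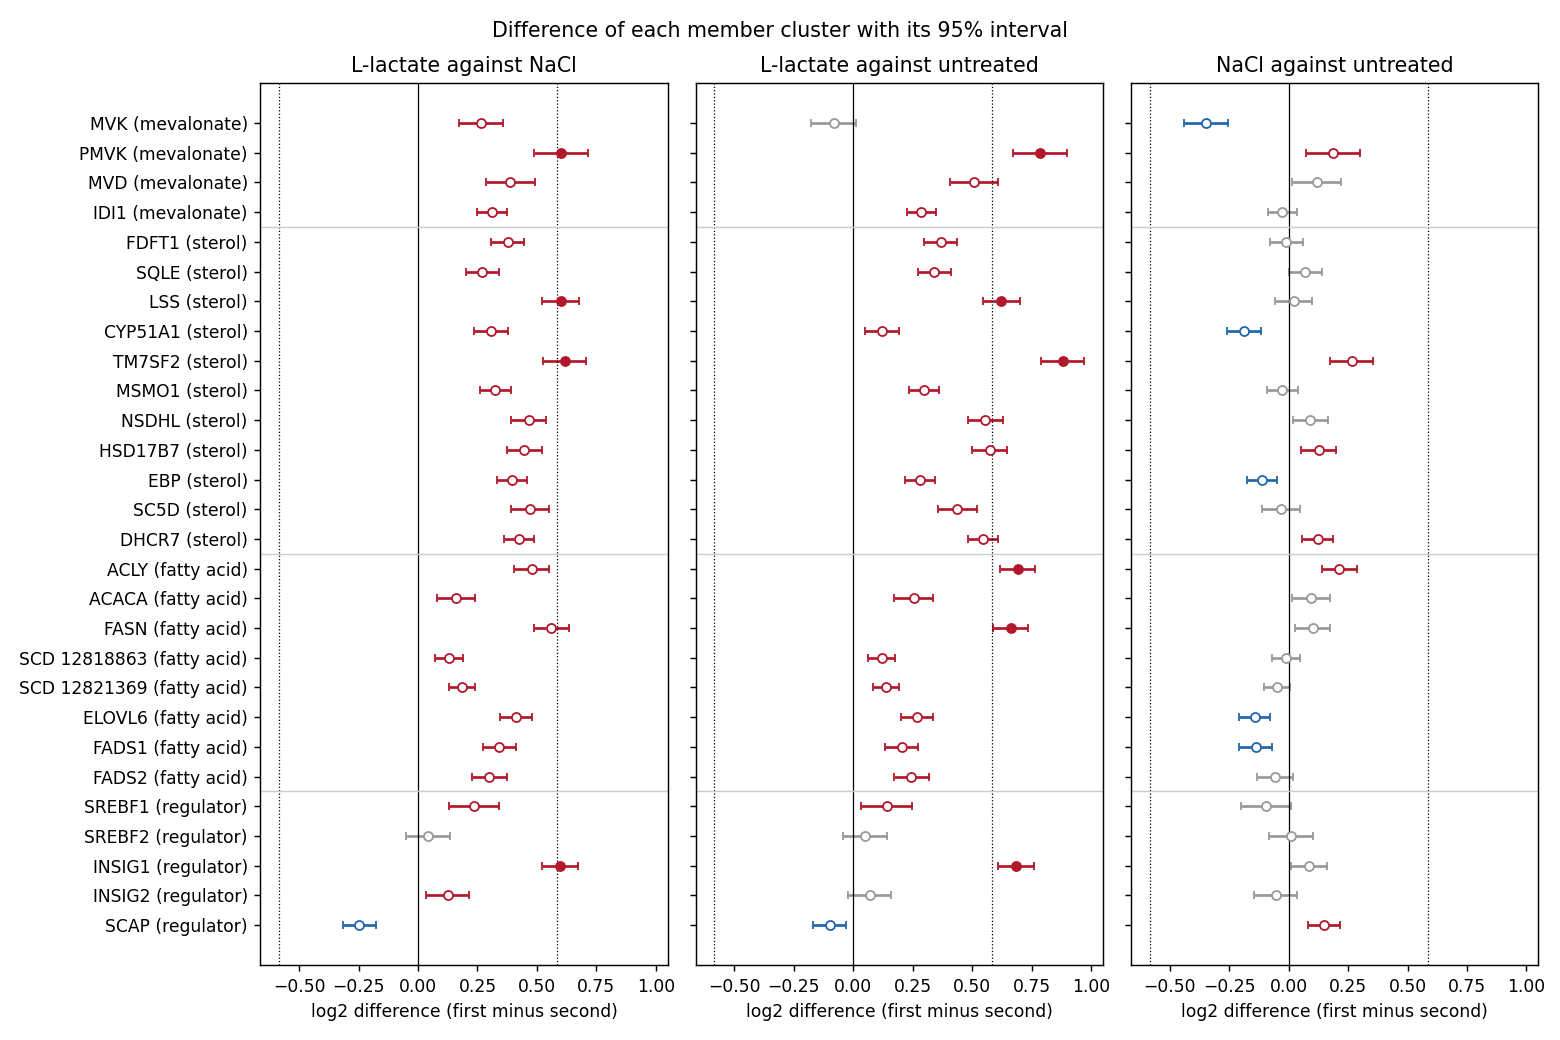
Log2 difference of every member cluster (horizontal axis) with its 95% interval from limma, in order of function, for the 3 comparisons. Red and blue mark clusters that rose or fell at an adjusted p under 0.05, grey those that did not pass, and filled points those that also changed more than 1.5-fold (dotted lines). The points of both L-lactate comparisons lie mostly to the right of 0, those of NaCl against untreated on both sides.

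The enzymes of the mevalonate pathway all rose with L-lactate against NaCl, 4 of 4 measured, by 0.27 to 0.60, and 3 of them also rose against untreated cells. PMVK (cluster 12838199), the kinase that adds the second phosphate to mevalonate, read 7.08, 7.09, 7.02, 7.11 and 7.22 in L-lactate, 6.56, 6.52, 6.52, 6.42 and 6.51 in NaCl and 6.36, 6.46, 6.15, 6.30 and 6.32 in untreated arrays. Every L-lactate array of PMVK was above every other array. It rose by 0.60 over NaCl (SE 0.053, adjusted p = 8.2e-07) and by 0.79 over untreated cells (SE 0.053, adjusted p = 3.2e-08). MVD, which removes the carboxyl group from mevalonate diphosphate, averaged 7.47 ± 0.042 (SD, n = 5 here and below) in L-lactate, 7.08 ± 0.095 in NaCl and 6.96 ± 0.074 in untreated cells. IDI1, which interconverts the isoprenoid building blocks, averaged 9.56 ± 0.049 in L-lactate, 9.25 ± 0.017 in NaCl and 9.28 ± 0.017 in untreated cells.

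MVK, the kinase that acts before PMVK, had a different order of groups. Its arrays read 8.19, 8.13, 8.20, 8.21 and 8.25 with L-lactate, 7.99, 7.99, 7.88, 7.93 and 7.87 with NaCl and 8.34, 8.40, 8.25, 8.21 and 8.20 without addition. The NaCl arrays were the lowest of all 15, and the L-lactate and untreated arrays overlapped. MVK rose by 0.27 over NaCl (SE 0.044, adjusted p = 3.5e-04), but against untreated cells its difference was -0.08 (95% interval -0.18 to 0.01, adjusted p = 0.20). With NaCl it was lower than in untreated cells by 0.35, the largest change of any member in that comparison (log2 difference -0.35, SE 0.044, adjusted p = 7.0e-05). It was the only member whose highest mean was that of untreated cells.

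All 11 enzymes from squalene to cholesterol rose with L-lactate against both controls, by 0.27 to 0.62 over NaCl and by 0.12 to 0.88 over untreated cells. TM7SF2 (cluster 12829453), a sterol reductase that acts after the demethylation of lanosterol, showed the largest change. Its arrays read 9.04, 9.03, 8.98, 9.01 and 9.02 in L-lactate, 8.41, 8.49, 8.37, 8.41 and 8.32 in NaCl and 8.02, 8.15, 8.09, 8.15 and 8.26 in untreated cells. None of the 3 groups of arrays overlapped with another. TM7SF2 was 1.53-fold higher than with NaCl (log2 difference 0.62, SE 0.043, adjusted p = 6.0e-08) and 1.84-fold higher than in untreated cells (0.88, adjusted p = 1.2e-09).

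LSS (cluster 12686938), which folds oxidized squalene into lanosterol, read 9.69, 9.61, 9.68, 9.69 and 9.62 in L-lactate, 9.12, 9.08, 9.00, 9.08 and 9.00 in NaCl and 9.01, 9.08, 9.01, 8.98 and 9.10 in untreated arrays. NaCl and untreated arrays overlapped, and all L-lactate arrays were higher. The difference was 0.60 from NaCl (SE 0.036, adjusted p = 1.5e-08) and 0.62 from untreated cells (SE 0.036, adjusted p = 7.4e-09).

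The other enzymes of this arm changed less. FDFT1, the squalene synthase that commits isoprenoids to sterols, averaged 10.31 ± 0.019 in L-lactate, 9.93 ± 0.042 in NaCl and 9.94 ± 0.054 in untreated cells. SQLE, the squalene epoxidase and an oxygen-dependent control point, averaged 10.39 ± 0.029, 10.12 ± 0.045 and 10.05 ± 0.046 in the same groups. These enzymes rose by 0.38 (FDFT1) and 0.27 (SQLE) over NaCl, and SQLE had the smallest difference of the 11.

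CYP51A1, the demethylase of lanosterol, averaged 9.87 ± 0.028 with L-lactate, 9.56 ± 0.057 with NaCl and 9.75 ± 0.037 in untreated cells. Its difference was thus 0.31 from NaCl and 0.12 from untreated cells, and the second of these was the smallest of the arm against untreated cells. MSMO1 and NSDHL, which oxidize and remove the methyl groups of the sterol ring, were higher than with NaCl by 0.32 and 0.46. HSD17B7, the reductase that completes this removal, was higher by 0.45.

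The enzymes of the last steps to cholesterol rose as well. EBP, which shifts a double bond in the ring, averaged 7.86 ± 0.037 in L-lactate, 7.47 ± 0.035 in NaCl and 7.58 ± 0.029 in untreated cells. SC5D, a sterol desaturase, was 0.47 above NaCl and 0.44 above untreated cells. DHCR7, which makes cholesterol from its last precursor, averaged 11.27 ± 0.017 in L-lactate, 10.84 ± 0.037 in NaCl and 10.72 ± 0.041 in untreated cells. Adjusted p-values of EBP, SC5D and DHCR7 lay between 7.2e-08 and 2.8e-07 against NaCl.

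**Figure D3:**
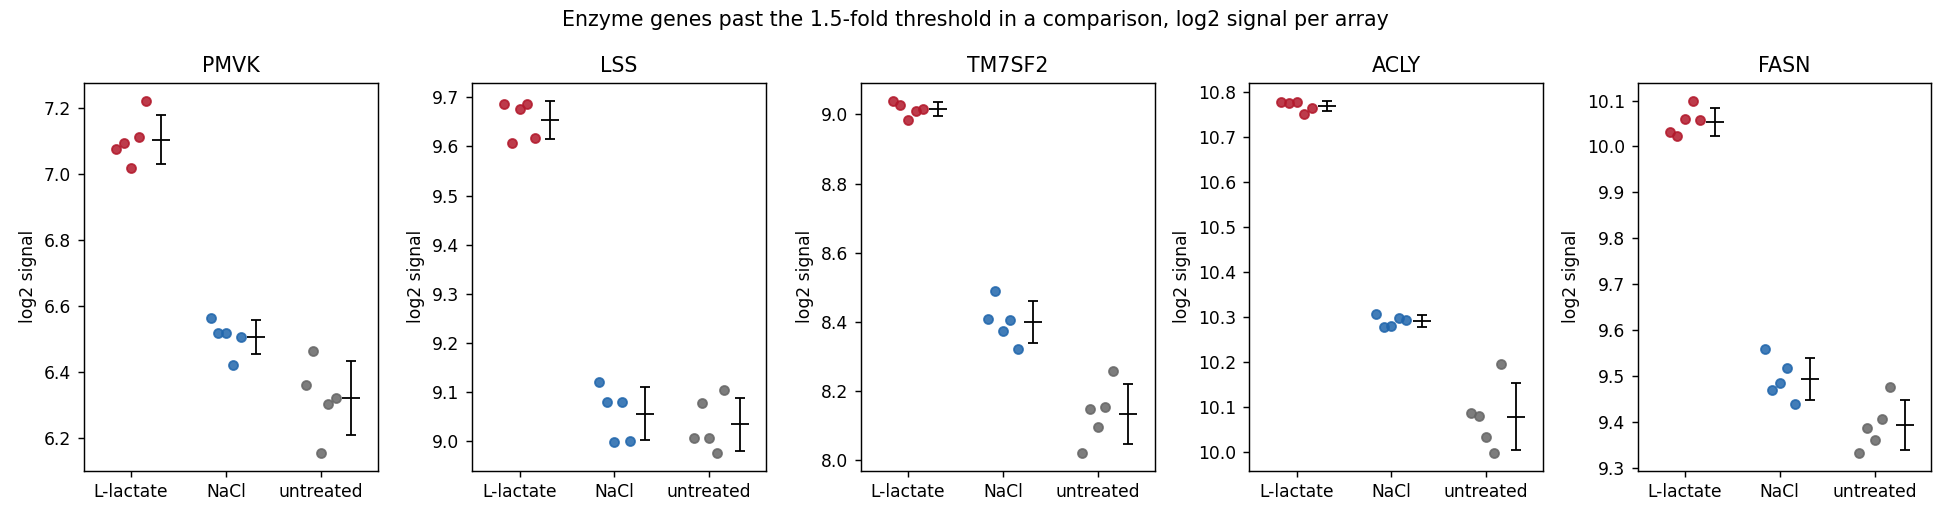
Log2 signal per array (vertical axes, which do not start at 0) of the 5 enzyme genes that passed the 1.5-fold threshold in at least 1 comparison, for L-lactate, NaCl and untreated cultures. Bars are the mean with its SD (n = 5). For each gene the L-lactate arrays lie above all others, and for TM7SF2 and ACLY the NaCl arrays also lie above the untreated ones.

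The 8 clusters of acetyl-CoA and fatty acid synthesis also rose with L-lactate in both comparisons. ACLY (cluster 12769528), which splits citrate into cytosolic acetyl-CoA, read 10.78, 10.77, 10.78, 10.75 and 10.76 in L-lactate, 10.31, 10.28, 10.28, 10.30 and 10.29 in NaCl and 10.09, 10.08, 10.03, 10.00 and 10.19 in untreated arrays. The groups were separate from each other, and the SD between arrays was as low as 0.011 with L-lactate. ACLY rose by 0.48 over NaCl (SE 0.034, adjusted p = 8.2e-08) and by 0.69 over untreated cells (SE 0.034, adjusted p = 1.4e-09).

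FASN (cluster 12760706), the fatty acid synthase, read 10.03, 10.02, 10.06, 10.10 and 10.06 in L-lactate, 9.56, 9.47, 9.48, 9.52 and 9.44 in NaCl and 9.33, 9.39, 9.36, 9.41 and 9.48 in untreated arrays. All L-lactate arrays were higher than any other, and NaCl and untreated arrays overlapped. The difference was 0.56 from NaCl (SE 0.034, adjusted p = 1.7e-08) and 0.66 from untreated cells (SE 0.034, adjusted p = 2.3e-09). ACACA, the acetyl-CoA carboxylase that supplies FASN, rose by only 0.16 over NaCl (SE 0.038, adjusted p = 0.0060) and by 0.25 over untreated cells.

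The enzymes that elongate and desaturate fatty acids had smaller differences than FASN. ELOVL6, which elongates palmitate, averaged 9.61 ± 0.033 in L-lactate, 9.20 ± 0.034 in NaCl and 9.34 ± 0.044 in untreated cells. FADS1 and FADS2, desaturases of polyunsaturated fatty acids with 0 protein-coding genes between them in the RefSeq annotation, rose by 0.34 and 0.30 over NaCl. SCD, the desaturase that makes oleate, had the smallest differences of the group, 0.13 over NaCl for cluster 12818863 (SE 0.027, adjusted p = 0.0022) and 0.19 for cluster 12821369 (SE 0.025, adjusted p = 5.9e-05). They averaged 11.67 ± 0.036 and 12.02 ± 0.014 in L-lactate, 11.54 ± 0.016 and 11.83 ± 0.023 in NaCl and 11.55 ± 0.020 and 11.88 ± 0.021 in untreated cells.

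The sterol sensing machinery did not move as a unit. INSIG1 (cluster 12850024), which retains SCAP and is itself a classical SREBP target, read 9.78, 9.80, 9.81, 9.82 and 9.83 in L-lactate, 9.24, 9.20, 9.17, 9.16 and 9.29 in NaCl and 9.09, 9.10, 9.11, 9.10 and 9.23 in untreated arrays. Every L-lactate array lay well above the other 10. INSIG1 rose by 0.60 over NaCl (SE 0.036, adjusted p = 1.2e-08) and by 0.68 over untreated cells (SE 0.036, adjusted p = 2.3e-09). INSIG2, its relative, read 7.60, 7.73, 7.66, 7.60 and 7.77 in L-lactate, 7.51, 7.57, 7.58, 7.47 and 7.61 in NaCl and 7.63, 7.57, 7.60, 7.54 and 7.68 in untreated arrays.

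The INSIG2 arrays of the 3 groups overlapped. The gene just passed against NaCl (log2 difference 0.12, SE 0.042, adjusted p = 0.049) and did not pass in 11 of the 15 fits that left out an array, with adjusted p-values from 0.050 to 0.125. These were the fits without L-lactate replicates 2, 3 or 5, NaCl replicates 1 to 4 or untreated replicates 1 to 4. Against untreated cells its difference was 0.07 (95% interval -0.02 to 0.16, adjusted p = 0.28).

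SCAP, the escort of SREBP to the Golgi apparatus, read 8.01, 8.00, 8.01, 8.06 and 7.99 in L-lactate, 8.33, 8.22, 8.29, 8.24 and 8.21 in NaCl and 8.06, 8.12, 8.11, 8.10 and 8.16 in untreated arrays. NaCl arrays were the highest, and L-lactate arrays the lowest, with L-lactate replicate 4 almost level with untreated replicate 1. SCAP fell by 0.25 relative to NaCl (log2 difference -0.25, SE 0.032, adjusted p = 4.1e-05) and was higher by 0.15 in NaCl than in untreated cells (SE 0.032, adjusted p = 0.0063). The difference between L-lactate and untreated cells was -0.10 (SE 0.032, adjusted p = 0.034). It did not pass in 7 of 15 fits without an array (L-lactate replicates 1, 2, 3 and 5 and untreated replicates 2, 3 and 5, with adjusted p-values from 0.058 to 0.085), with the replicate number as a block (adjusted p = 0.081) or with arrays centred on their medians (0.14).

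SREBF2, whose product drives the cholesterol enzymes, read 7.83, 7.77, 7.79, 7.84 and 7.78 in L-lactate, 7.88, 7.71, 7.77, 7.80 and 7.64 in NaCl and 7.72, 7.78, 7.68, 7.76 and 7.81 in untreated arrays. The groups overlapped, and the NaCl arrays spread most. The difference was 0.04 from NaCl (95% interval -0.05 to 0.13, adjusted p = 0.60) and 0.05 from untreated cells (-0.04 to 0.14, adjusted p = 0.47).

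SREBF1, whose product favours the fatty acid genes, read 6.33, 6.26, 6.34, 6.37 and 6.33 in L-lactate, 6.24, 5.98, 6.12, 6.07 and 6.03 in NaCl and 6.10, 6.28, 6.12, 6.19 and 6.24 in untreated arrays. The L-lactate arrays were just above the NaCl arrays and overlapped with the untreated ones. SREBF1 rose by 0.24 over NaCl (SE 0.049, adjusted p = 0.0023). Against untreated cells the difference of 0.14 was at the limit (adjusted p = 0.049) and did not pass in 10 of 15 fits without an array (each L-lactate replicate but number 2, NaCl replicates 3 to 5 and untreated replicates 1, 3 and 4, with adjusted p-values from 0.053 to 0.12), nor with the replicate block (adjusted p = 0.10).

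**Figure D4:**
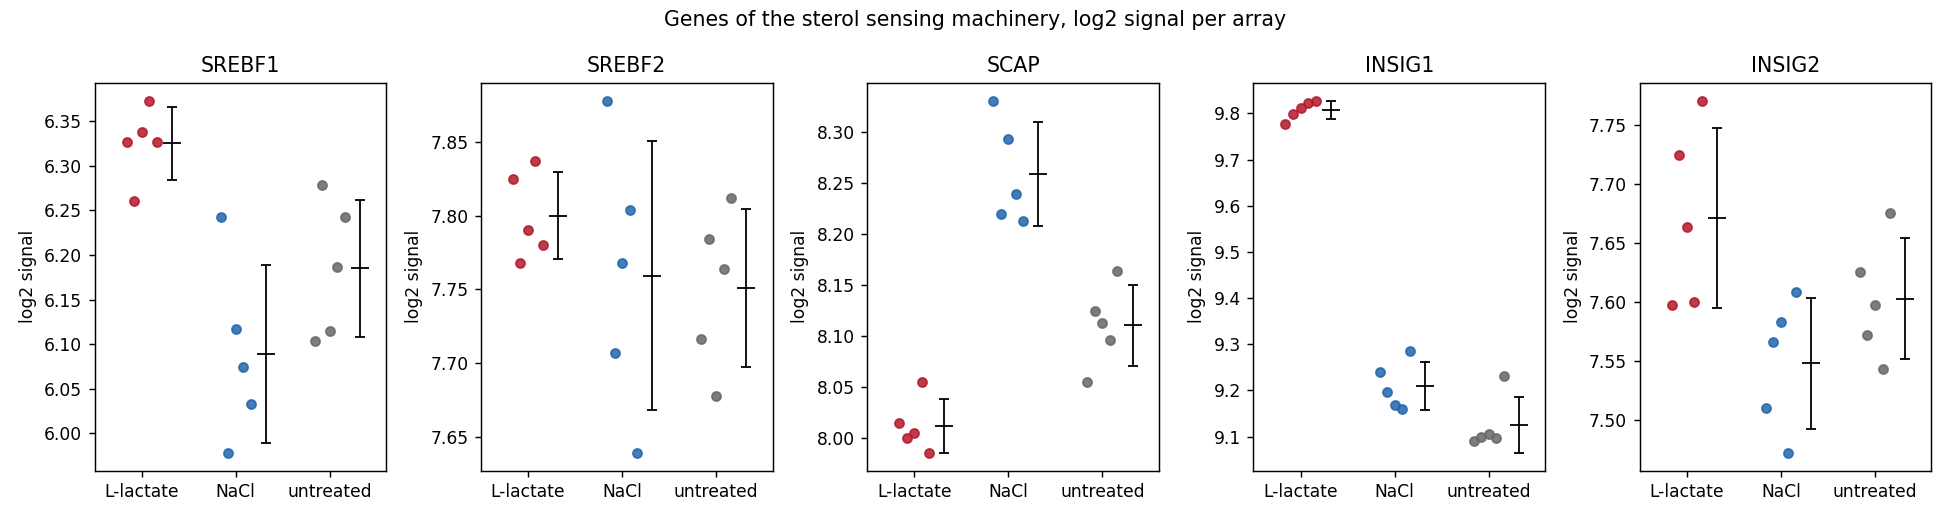
Log2 signal per array (vertical axes, which do not start at 0) of the SREBP genes, their escort SCAP and the INSIG genes in L-lactate, NaCl and untreated cultures. Bars are the mean with its SD (n = 5). The L-lactate arrays are highest for INSIG1 and lowest for SCAP, and overlap with those of other groups for SREBF2 and INSIG2.

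Sodium chloride on its own shifted the members in both directions. Against untreated cells, 6 of the 28 clusters (21.4%) rose with NaCl, namely PMVK, TM7SF2, HSD17B7, DHCR7, SCAP and ACLY, and 5 (17.9%) fell, namely MVK, CYP51A1, EBP, ELOVL6 and FADS1. Of all clusters 6.13% rose and 5.81% fell, and of those with a signal at or above the median 10.9% rose and 9.75% fell. The median difference of the members was -0.00072, that of all clusters 0.0016, and the difference was above 0 for 14 of 28 members and 50.5% of all clusters. No member passed the fold threshold in either direction (0 of 28), where 0.403% of all clusters passed upwards and 0.743% downwards. In a fit of these 10 arrays alone, 3 members rose. Without NaCl replicate 2, untreated replicate 3 or untreated replicate 4, 4 rose, and without untreated replicate 5, 9 rose. PMVK did not pass in 7 of 15 fits without an array, HSD17B7 and EBP in 4 each. With arrays centred on their medians, PMVK (adjusted p = 0.050) and EBP (0.080) did not pass. Arrays of the groups did not overlap for 5 higher members (5.55% of all clusters) and 5 lower ones (5.42%).

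The largest increases with NaCl were those of TM7SF2, at 0.27 (SE 0.043, adjusted p = 6.0e-04), and of ACLY, at 0.21 (SE 0.034, adjusted p = 5.8e-04). In both genes the L-lactate arrays lay higher still. The decrease of CYP51A1 was 0.19 (log2 difference -0.19, SE 0.033, adjusted p = 0.0014), and ELOVL6 and FADS1 each fell by 0.14. In these 3 genes the L-lactate arrays lay above both controls. By their means, 13 members had the order L-lactate, NaCl, untreated from high to low and 13 the order L-lactate, untreated, NaCl. The remaining members were MVK and SCAP.

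Beyond the members, 81 further genes of lipid metabolism were listed by function, and 78 of them were measured. Against NaCl, 28 of these rose and 10 fell with L-lactate (10.7% and 11.5% of all clusters), with a median of 0.04. Against untreated cells, 27 rose and 17 fell with L-lactate (13.3% and 13.7% of all clusters), with a median of 0.0071. Their differences from NaCl ran from -0.40 to 1.29, a wider range than that of the members. Against NaCl, 5 passed the fold threshold, ABCA1, LPIN1, CAV1, ACSS2 and FADS3, all of them upwards. That threshold was passed upwards by 1.28% of all clusters and downwards by 0.601%. FADS3 did not pass it against untreated cells, at 1.41-fold. Unlike the members, several of the 78 genes lay below the array medians of 4.52 to 4.60. Examples are THRSP, ELOVL2 and ABCG5, with means over all arrays of 1.81, 1.93 and 2.71. The members and the further genes are thus not matched for signal.

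ABCA1, the transporter that exports cholesterol to apolipoproteins and answers to the sterol receptor LXR, averaged 6.61 ± 0.096 in L-lactate, 5.32 ± 0.088 in NaCl and 5.76 ± 0.034 in untreated cells. Its L-lactate arrays ranged from 6.52 to 6.77, the NaCl arrays from 5.17 to 5.39 and the untreated arrays from 5.73 to 5.81, so the groups were separate. The difference from NaCl was 1.29 (SE 0.050, adjusted p = 2.1e-10), and with NaCl the gene was lower than in untreated cells by 0.43 (log2 difference -0.43, adjusted p = 3.1e-05). The other 9 genes of LXR and efflux split into 2 that rose (MYLIP and CYP7B1), 1 that fell (CYP27A1, a sterol hydroxylase, with -0.32) and 6 that did not pass. Of all clusters, 10.7% rose and 11.5% fell. ABCG1, another sterol exporter, had a difference of -0.04 (adjusted p = 0.75). Its mean signal of 3.66 lay below the array medians of 4.52 to 4.60. ABCG5 (2.71) and ABCG8 (2.67), which also did not pass, lay lower still. Against untreated cells, 2 of the 10 genes rose with L-lactate (ABCA1 and NR1H3) and 3 fell (13.3% and 13.7% of all clusters). MYLIP and CYP7B1 did not pass there, with differences of -0.09 and -0.23, and with NaCl they fell relative to untreated cells (log2 differences -0.35 and -0.52).

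LPIN1, a phosphatidate phosphatase of glycerolipid synthesis, averaged 7.92 ± 0.041 in L-lactate, 6.80 ± 0.080 in NaCl and 6.56 ± 0.12 in untreated cells. It rose by 1.11 over NaCl (SE 0.055, adjusted p = 1.9e-09) and by 1.36 over untreated cells. In the same list of 8, PLIN2, the coat protein of lipid droplets, rose by 0.42, and the other 6 did not pass against NaCl. Of all clusters, 10.7% rose and 11.5% fell in that comparison.

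Among 9 genes of acetyl-CoA and NADPH supply, 5 rose and 1 fell against NaCl (10.7% and 11.5% of all clusters). ACSS2, which makes acetyl-CoA from acetate, rose most, by 0.66 (SE 0.045, adjusted p = 6.0e-08), with 10.37 ± 0.049 in L-lactate, 9.72 ± 0.051 in NaCl and 9.62 ± 0.095 in untreated cells. SLC25A1, the mitochondrial citrate carrier, rose by 0.24 and PGD, an NADPH-yielding enzyme of the pentose phosphate pathway, by 0.30. ACAT1, the mitochondrial thiolase of ketone metabolism, fell (log2 difference -0.17, adjusted p = 0.0018).

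Of 14 genes of fatty acid elongation and desaturation, 6 rose and 1 fell against NaCl (10.7% and 11.5% of all clusters). FADS3, the neighbour of FADS2, rose by 0.59 (SE 0.050, adjusted p = 5.3e-07). HSD17B12, a reductase of the elongation cycle, rose by 0.45. Among the dehydratases of that cycle, HACD2 fell (log2 difference -0.40, SE 0.030, adjusted p = 1.4e-07). HACD3 rose by 0.31 (adjusted p = 1.4e-05), and HACD1 did not pass. ELOVL5 rose by 0.25 and ELOVL2, ELOVL3, ELOVL4 and ELOVL7 did not pass. Mean signals of ELOVL2 (1.933), ELOVL3 (2.265) and ELOVL7 (1.957) were far below the array medians of 4.52 to 4.60.

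CAV1, the caveolar scaffold that binds cholesterol, rose by 0.82 over NaCl (SE 0.036, adjusted p = 6.6e-10) and by 0.59 over untreated cells. It belongs to 11 genes of sterol esters and trafficking. Of these, 4 rose, 2 fell and 5 did not pass against NaCl, where 10.7% of all clusters rose and 11.5% fell. NPC1, which releases cholesterol from lysosomes, rose by 0.28, while NPC2 was lower (log2 difference -0.10, adjusted p = 0.049). SOAT1, which esterifies cholesterol, had a difference of -0.03 (adjusted p = 0.71).

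Of 9 genes of the branches that leave the mevalonate pathway for other isoprenoids, 1 (DHDDS) rose, 1 (GGPS1) fell and 7 did not pass against NaCl, shares close to those of all clusters (10.7% and 11.5%). GGPS1, which makes the lipid anchor of prenylated proteins, averaged 7.83 ± 0.031 in L-lactate, 8.18 ± 0.025 in NaCl and 8.19 ± 0.074 in untreated cells (log2 difference from NaCl -0.36, SE 0.036, adjusted p = 3.1e-06). Of 4 genes that process SREBP, 1 rose and 1 fell (10.7% and 11.5% of all clusters). MBTPS1, the protease that makes the first cut, fell (log2 difference -0.21, adjusted p = 6.6e-04) and SEC24C, a coat protein of vesicles from the endoplasmic reticulum, rose by 0.17, while MBTPS2 and SEC23A did not pass. Of 5 genes of the sterol-dependent degradation machinery, RNF145 and VCP rose, by 0.24 and 0.17, and UBXN8 fell. The shares of all clusters were again 10.7% higher and 11.5% lower.

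Accessory proteins of sterol synthesis were the remaining list, with 4 of 8 higher and 2 lower against NaCl (10.7% and 11.5% of all clusters). Against untreated cells the balance was the reverse, with 2 higher (CYB5B and ERG28) and 4 lower (13.3% and 13.7% of all clusters). The 4 were LBR, CYB5A (log2 difference -0.42), POR (-0.25) and CYB5R3 (-0.20). CYB5B, a cytochrome b5 that passes electrons, rose by 0.46 (SE 0.037, adjusted p = 2.8e-07). LBR, a lamin receptor that shares the reductase activity of TM7SF2, moved the other way. Its L-lactate arrays ranged from 6.12 to 6.27, its NaCl arrays from 6.37 to 6.45 and its untreated arrays from 6.63 to 6.96, without overlap. LBR was lower with L-lactate than in untreated cells by 0.63 (log2 difference -0.63, SE 0.063, adjusted p = 1.8e-06). It was the only one of these 78 genes to pass the fold threshold downwards in that comparison, where 1.33% of all clusters did. With NaCl it was lower than in untreated cells by 0.42.

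**Figure D5:**
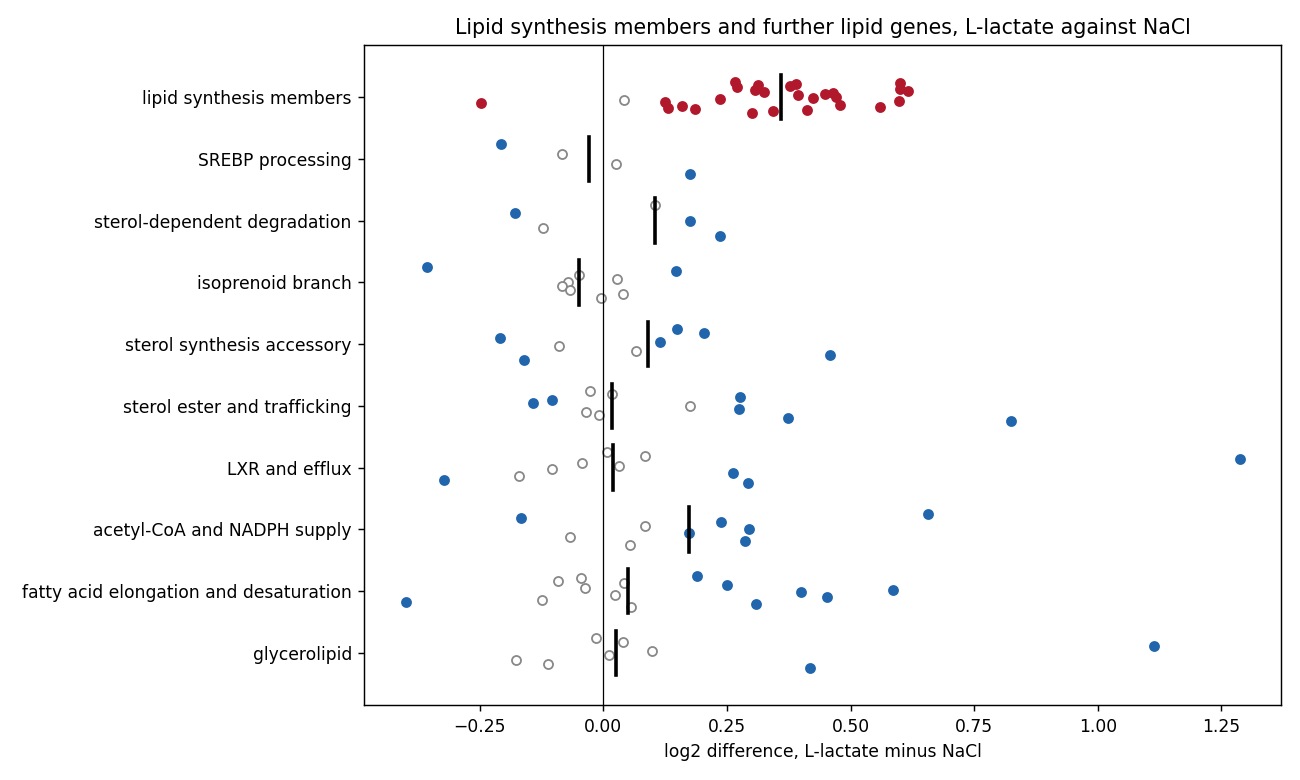
Log2 difference between L-lactate and NaCl (horizontal axis) for the 28 member clusters (top, red) and for 78 further lipid genes by function (blue). Filled points passed at an adjusted p under 0.05, open points did not, and black bars are medians. The members form a compact group at positive values, with SCAP apart on the left, while the medians of the other lists lie between -0.05 and 0.17. Some of the 78 genes, unlike the members, had signals below the array medians of 4.52 to 4.60, so the lists are not matched for signal.

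Most granulosa and stromal markers differed between L-lactate and NaCl, and few markers of other cell types did. Of 8 granulosa markers, 6 were lower with L-lactate than with NaCl and 0 were higher (11.5% and 10.7% of all clusters). The aromatase gene CYP19A1, for instance, averaged 7.75 ± 0.15 in L-lactate, 8.97 ± 0.044 in NaCl and 8.51 ± 0.084 in untreated cells. FOXL2, a transcription factor of granulosa identity, averaged 7.17 ± 0.061, 7.75 ± 0.14 and 7.55 ± 0.099 in the same order. The study, which used the 1.5-fold threshold, describes FOXL2 as unaffected by L-lactate. Here its difference from NaCl was -0.58 (adjusted p = 7.3e-06), just short of that threshold. HSD17B1 was at low signal, 3.79 ± 0.084 in L-lactate, 3.88 ± 0.063 in NaCl and 4.10 ± 0.095 in untreated cells. Of 6 stromal markers, 3 (DCN, COL1A1 and PDGFRA) rose and 1 (COL3A1) fell against NaCl, and their mean per array ranged from 8.67 to 8.77 in L-lactate, 8.26 to 8.61 in NaCl and 8.60 to 8.70 in untreated cells. Against untreated cells, 2 stromal markers rose and 2 fell with L-lactate, where 13.3% of all clusters rose and 13.7% fell. In that comparison 5 of the 8 granulosa markers fell, with a median over the 8 of -0.29 and a difference of -0.77 for CYP19A1.

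Mean signals of the 4 theca markers averaged 5.07 in L-lactate, 5.02 in NaCl and 5.26 in untreated cells, and 0 of them passed between L-lactate and NaCl. INSL3, a peptide hormone of theca cells, was lower than in untreated cells both with L-lactate (log2 difference -0.69, adjusted p = 0.0015) and with NaCl (-0.64, adjusted p = 0.0072), past the fold threshold in each. The 6 endothelial markers averaged 3.72, 3.75 and 3.73 in L-lactate, NaCl and untreated cells, below the array medians of 4.52 to 4.60, with 1 higher and 1 lower against NaCl. The 6 leukocyte markers averaged 3.93, 3.78 and 3.89, with 1 higher, and the 6 oocyte markers 2.7, 2.75 and 2.77, with 0 passing against NaCl. Of all clusters, 10.7% rose and 11.5% fell with L-lactate against NaCl. In RNA of whole cultures, fewer cells of a type and less RNA per cell cannot be told apart, and the part of these markers in the changes of the lipid genes was not tested.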

How the data were processed

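RNA of 15 GC cultures was hybridized to Bovine Gene 1.0 ST arrays. The authors deposited log2 signals per transcript cluster, made in the Affymetrix Expression Console (1.4.1.46) by background reduction, normalization and RMA summary. The genome build is not given in the sources used here. Array medians lay between 4.52 and 4.60. Scanner files were not used here, so neither background nor scan batches could be tested, and the number of arrays limits the precision.

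All 26773 clusters were fitted with limma 3.58.1 in R 4.3.3 (with jsonlite 2.0.0 and, for tables, version 1.17.8 of data.table), with a coefficient per group, no replicate block, moderated tests, Benjamini-Hochberg adjustment over all clusters, and 95% intervals. Of the clusters, 18457 carry 1 symbol, 688 several and 7628 none. Further genes are represented by their brightest cluster with a single symbol. Figures were drawn in Python 3.11.15 with pandas 2.3.3, numpy 2.4.6 and matplotlib 3.10.9.

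The members and lists were chosen with earlier results of these data known. Array values are given for members that passed the fold threshold in a comparison, for the regulators and, chosen after its values were seen, for MVK. Further genes are named where they passed that threshold or differed most in their list, and some others were named after their values were seen. Alternatives were a fit of the 10 arrays compared, the replicate block, an unmoderated ANOVA contrast like the methods' test, an intensity trend, a filter on dim clusters, median centring, repeated quantile normalization, leaving out each array and, added after seeing the data, counting clusters of identical values once. In simulated data for L-lactate against NaCl over 26773 clusters, changes of 1.2-, 1.3- and 1.7-fold were set in 50 clusters each. At an adjusted p under 0.05, 21, 31 and 47 of these were recovered, in that order, and 7 unchanged clusters were called. The changed clusters were drawn at random from all signal levels and were far fewer than the 5941 called in the real comparison. These recoveries therefore do not describe the members, which all lie in the upper part of the signal range.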

Additional observations from a re-analysis of the deposited data

Results flagged for a closer look

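In 84 groups of 5 arrays (28 member clusters in 3 groups), 3 had an array far from the others by Dixon's criterion, where chance gives about 1 in 20. CYP51A1 in L-lactate replicate 5 read 9.82, below the next value of 9.87. INSIG1 in untreated replicate 5 read 9.23, above the next value of 9.11. SCD (cluster 12821369) in untreated replicate 4 read 11.84, below the next value of 11.89.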

How the results depend on the processing

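The 26 members higher and the 1 lower with L-lactate than with NaCl kept their direction in every alternative run, and all but INSIG2 stayed at an adjusted p under 0.05. INSIG2 had an adjusted p of 0.081 with the 10 arrays alone, 0.058 with median centring and 0.063 with repeated quantile normalization, and from 0.035 to 0.125 without an array. Without single arrays, 25 to 26 members rose and 1 fell against NaCl, 3 to 4 passed the fold threshold, and the median was 0.34 to 0.37. Against untreated cells, 23 to 24 rose, 0 to 1 fell and the median was 0.29 to 0.30, and for NaCl against untreated cells 4 to 9 rose and 4 to 5 fell. The number of members lower with L-lactate than in untreated cells was 0 with median centring, which moved the median of the members there to 0.316, and 0 with the replicate block, because SCAP did not pass. SCD (cluster 12821369) and SREBF1 did not pass against untreated cells with repeated quantile normalization (adjusted p = 0.15 and 0.068). For NaCl against untreated cells, 3 members rose in the fit of the 10 arrays alone, where PMVK, HSD17B7, EBP and DHCR7 did not pass, and with median centring PMVK and EBP did not pass (adjusted p = 0.0503 and 0.0795). The sources do not say whether equal replicate numbers mark pairs. Correlations of same-number arrays after subtraction of group means were between -0.065 and 0.066 (0 of 15 above 0.1). For 6 of the 15 arrays the best match in another group had the same number. These values do not settle whether the numbers mark a shared pool. The block gave 5601, 6945 and 2788 clusters at an adjusted p under 0.05 for L-lactate against NaCl, L-lactate against untreated and NaCl against untreated, where the fit without it gave 5941, 7254 and 3195, and changed no other call of a member than those of SCAP and SREBF1 against untreated cells. Detection above background was not analysed here.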
